A study of Rattus norvegicus with 2 samples.

Results

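Microglia with low *Ccl3*, *Ccl4* and *Il1b* were 363 of 8675 hypothalamic cells, 188 of 4296 in the Control library and 175 of 4379 in the SC300 library. They were chosen by detected genes. A cell barcode with at least 200 detected genes was a member if at least 3 of *Tmem119*, *P2ry12*, *Cx3cr1*, *Csf1r*, *C1qa* and *Aif1* were detected, if fewer than 2 of the macrophage genes *Mrc1*, *Cd163*, *Lyve1* and *F13a1* and fewer than 2 of the neuronal, oligodendrocyte, endothelial and astrocyte genes *Snap25*, *Mog*, *Cldn5* and *Gja1* were detected, and if *Ccl3*, *Ccl4* and *Il1b* together stayed under 10 unique molecular identifiers (UMIs, tags that mark each captured RNA molecule once) per 10000 UMIs of the cell. Microglial barcodes at or above that limit are called high microglia below, and were 324 in each library.

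The study asked how a neonatal estrogen implant acts on the female hypothalamus. Hypothalamic tissue of female Sprague Dawley rats was taken at postnatal day (PND) 29, when the animals were 4 weeks old, and single cells were sequenced from 1 library per group. Estradiol benzoate (EB), 300 µg in a capsule under the skin from PND 0.5 on, was given to the SC300 rats, and the Control rats are called intact in the labels and carried an oil capsule according to the methods. Tissue of 3 rats was pooled for each library. The variation between rats was therefore not measured, no test between the groups was possible, and the intervals given below are 95% intervals that cover counting error only.

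Microglia are the resident immune cells of the brain parenchyma. They depend on CSF1R signalling for survival, keep a surveillant state that is marked by *Tmem119* and *P2ry12*, and clear debris and synapses with the help of complement and lysosomal enzymes. When stimulated they transcribe chemokines such as *Ccl3* and *Ccl4* and the cytokine *Il1b*, largely through NF-kB and AP-1 transcription factors, and immediate-early genes such as *Fos* and *Egr1* rise within minutes of many stimuli, tissue dissociation among them.

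The members carried markers of microglia, of which *C1qb* and *Ctss* are outside the rule, while the shares of *Csf1r* and *P2ry12* are in part set by it. *Csf1r*, the receptor that microglia need for survival, had a UMI in 96.3% of Control members and 97.1% of SC300 members. *C1qb*, a subunit of complement C1q, was detected in 98.4% and 98.9%, and the lysosomal protease *Ctss* in 93.6% and 95.4%. In oligodendrocyte barcodes, which should lack these genes, *C1qb* had a UMI in 41 of 641 and 54 of 810 cells and *Ctss* in 0.468% and 0.617%, at median depths of 19017 and 19834 UMIs against 3663.5 and 4458 UMIs in the members. After thinning each cell to 2000 UMIs, *C1qb* remained in 98.4% of 129 Control and 93.2% of 133 SC300 members. Detection of the purinergic receptor *P2ry12* followed depth more closely, with 62.8% and 56% of all members and 45.0% and 38.3% of thinned members.

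Of 9 measured markers of border-associated macrophages, 5 in Control and 6 in SC300 had no UMI, which at 3 counts of the total allows up to 2.98 CPM in Control and 2.97 CPM in SC300. *Mrc1*, *Cd163* and *F13a1* were among them, but the rule itself used these genes and their absence is largely fixed by it. Of the markers that the rule did not use, *Stab1* and *Ms4a7* had 0 UMIs in both libraries, *Siglec1* had 1 and 0, *Folr2* had 17 and 15, and the platelet factor gene *Pf4* had 68 and 51. *Lyve1*, the hyaluronan receptor used to tell these macrophages from microglia, was detected in many members, with 164 UMIs in 82 Control members and 128 UMIs in 67 SC300 members. Its level of 163 and 127 CPM lay beside 168 and 161 CPM in high microglia. The 5 measured monocyte and granulocyte markers had 3 UMIs in all in Control and 45 in SC300, of which 35 were *Vcan*, and the 5 measured lymphocyte markers had 3 and 0 UMIs.

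A minority of members held much RNA of other cells or a low share of microglial RNA. Mixed barcodes were defined after the data had been seen, as members with at least 100 UMIs per 10000 from 43 markers of other cells, with under 100 per 10000 from 9 microglial genes, or with haemoglobin at 1000 per 10000 or more. They were 16 Control and 23 SC300 members, and their share of the members' UMIs was 30% and 35%. The summed 7 oligodendrocyte markers, all measured, stood at 2554 CPM in Control and 9229 CPM in SC300 over all members, and at 473 and 476 CPM without the mixed barcodes. The 8 neuronal markers, led by *Snap25*, stood at 726 and 330 CPM, and at 87.9 and 87.0 CPM without them. The 5 markers of oligodendrocyte precursors, led by *Olig1* in SC300, still differed, with 94.2 and 308 CPM over all members and 12.8 and 122 CPM (9 and 80 UMIs) without mixed barcodes. The part of this RNA in the results below was not tested. Just 2 cells per library held 28391 of 29346 haemoglobin UMIs in Control and 26808 of 27013 in SC300. The monocyte and granulocyte markers given above had 1 UMI in Control and 6 in SC300 without mixed barcodes. The counts over all genes below, and the values of many named genes and lists, are therefore also given for the 172 Control and 152 SC300 members that were not mixed.

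Low microglia were about as frequent in both libraries. They made up 4.38% (Clopper-Pearson interval 3.78 to 5.03) of Control cells and 4.00% (3.44 to 4.62) of SC300 cells, a log2 ratio of SC300 over Control of -0.13 (-0.44 to 0.17). Among microglial barcodes alone they were 36.7% of 512 in Control and 35.1% of 499 in SC300. Neither difference was larger than the counting error. The members were shallower than high microglia, whose median depth was 8501.5 UMIs in Control and 8839.5 UMIs in SC300. All members together held 1008285 UMIs in Control and 1008598 UMIs in SC300. Mitochondrial genes took a median of 7.07% of UMIs in Control and 8.43% in SC300 members. The libraries share 9 barcode sequences, and none of these belongs to a member.

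The values on which the members were selected form a description and carry no test. *Ccl3* stood at 71.4 CPM in the Control and 98.2 CPM in the SC300 members, against 4537 and 4580 CPM in high microglia. *Ccl4* stood at 65.5 and 95.2 CPM against 6409 and 6988 CPM. *Il1b* stood at 42.6 and 21.8 CPM against 2451 and 2376 CPM. Both chemokines and the cytokine thus stayed far below the high microglia in both libraries, and above the 1.24 to 6.86 CPM of oligodendrocyte barcodes. Of the members, 132 in Control and 115 in SC300 had no UMI of the 3 genes at all. Just inside the limit, the nearest member stood at 9.80 per 10000 in Control and at 9.75 in SC300, and just outside it the nearest barcode stood at 10.0 in Control and at 10.5 in SC300. The histogram of the summed level had its highest bin at 0, and the bins in it are of unequal width.

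**Figure D1:**
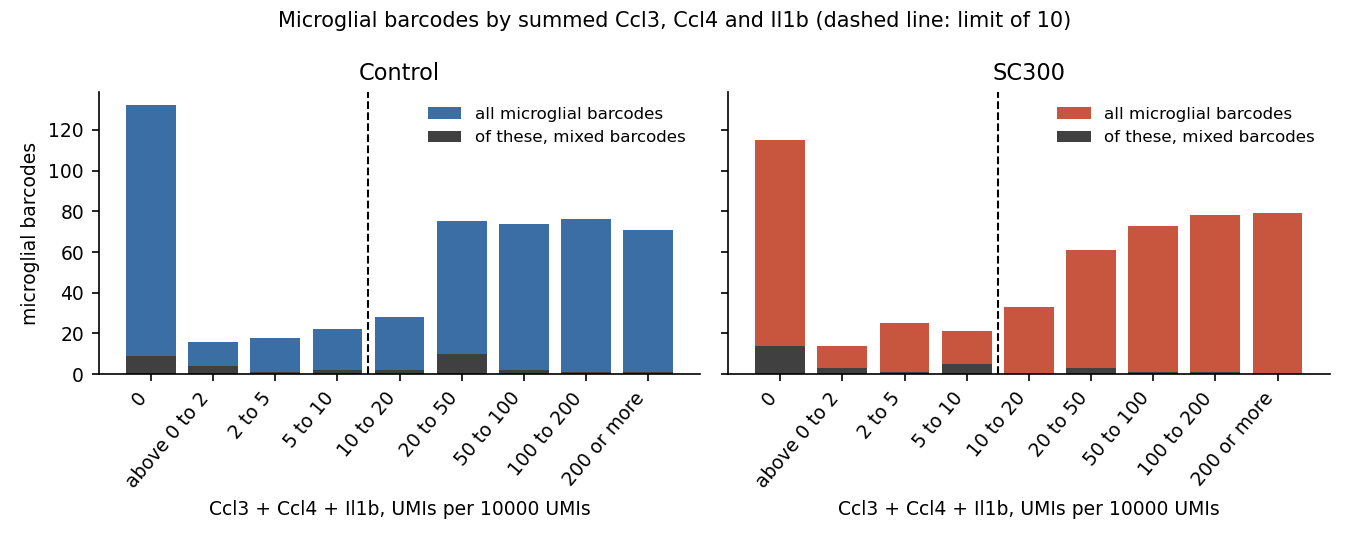
Number of microglial barcodes (y axis) in bins of unequal width of summed Ccl3, Ccl4 and Il1b in UMIs per 10000 UMIs (x axis), in Control (left, blue) and SC300 (right, red), with mixed barcodes in dark grey and the limit of 10 as a dashed line. In each library the bin at 0 is the highest, with 132 Control and 115 SC300 barcodes, and 22 and 21 members lie from 5 to 10.

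Depth moved with the choice of members. Of microglial barcodes under 2000 UMIs, 90.8% of 65 in Control and 79.2% of 53 in SC300 fell under the limit, and of those with 5000 UMIs or more, 20.5% of 336 and 20.9% of 364. When all microglial barcodes were thinned to 2000 UMIs, 28.2% of 447 Control and 29.1% of 446 SC300 barcodes fell under it, with 122 of the 129 Control members and 123 of the 133 SC300 members still among them and 4 of 318 and 7 of 313 high barcodes added. Low depth and low transcription cannot be told apart for the shallowest members, while 69 Control and 76 SC300 members had 5000 UMIs or more. Of these deeper members, 58 in Control and 57 in SC300 were not mixed.

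Beyond the 3 genes of the limit, low microglia differed from high microglia in chemokines, immediate-early genes and the NF-kB pathway. Because the limit was applied to this same contrast, all of these values are descriptions. Of 6142 genes with at least 100 UMIs, 123 (2%) were over 2-fold lower in low microglia in both libraries and 327 (5.32%) were over 2-fold higher. Without mixed barcodes, 102 of 5502 genes (1.85%) were lower and 12 (0.218%) were higher.

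Several chemokines were far lower in low microglia. *Ccl2*, which recruits monocytes, stood at 34.7 CPM in low against 1497 CPM in high microglia of Control, and at 31.7 against 1928 CPM in SC300, with log2 ratios of -4.95 and -5.37 without mixed barcodes. *Ccl7*, a related monocyte attractant, had 12 against 399 UMIs in Control and 4 against 563 UMIs in SC300. The neutrophil attractant *Cxcl1* had 0 against 95 and 3 against 111 UMIs, and the cytokine *Il1a* 1 against 84 and 4 against 136 UMIs. All 4 genes were lower in low microglia in both libraries. Of the 16 chemokines and cytokines with at least 100 UMIs other than the genes of the limit, 9 were over 2-fold lower in both libraries, with and without mixed barcodes. The share of all genes was 2% with and 1.85% without mixed barcodes. *Tgfb1*, the cytokine that maintains microglial identity, differed by 0.03 and 0.00 on the log2 scale, and *Il18* by -0.02 and -0.12, without mixed barcodes.

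Immediate-early genes were low as well. Without mixed barcodes, 16 of 25 measured genes of the immediate-early and stress list were over 2-fold lower in both libraries, beside 1.85% of all genes. The list median was -1.62 in Control and -2.13 in SC300, beside 0.05 and 0.06 over all genes tested. The nuclear receptor *Nr4a1* stood at 39.7 against 546 CPM in Control and at 29.7 against 495 CPM in SC300, with log2 ratios of -4.10 and -4.11 without mixed barcodes. The stress-induced factor *Atf3* stood at 22.8 against 266 CPM and at 29.7 against 490 CPM (-3.08 and -3.51 without mixed barcodes). *Egr2*, a zinc finger factor of the same early wave, stood at 38.7 against 349 CPM and at 11.9 against 330 CPM (-2.69 and -4.95 without mixed barcodes). *Fos* was lower by log2 differences of -1.72 and -2.13 and *Egr1* by -2.05 and -3.08 without mixed barcodes. The heat shock gene *Hspa1b* of the same list went the other way, with 0.59 in both libraries.

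In the NF-kB and Toll-like receptor list, 9 of 24 genes were over 2-fold lower without mixed barcodes, beside 1.85% of all genes. The 9 genes were led by inhibitors and targets of the pathway. *Nfkbiz*, a nuclear IkB protein that is induced by the pathway, stood at 25.8 against 297 CPM in Control and at 12.9 against 297 CPM in SC300. *Nfkbia*, the IkB-alpha inhibitor, was lower by -2.04 and -3.34 on the log2 scale, and the activation marker *Cd83* by -2.45 and -3.34. The receptor *Tlr2*, by contrast, differed by -0.17 and -0.19.

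**Figure D2:**
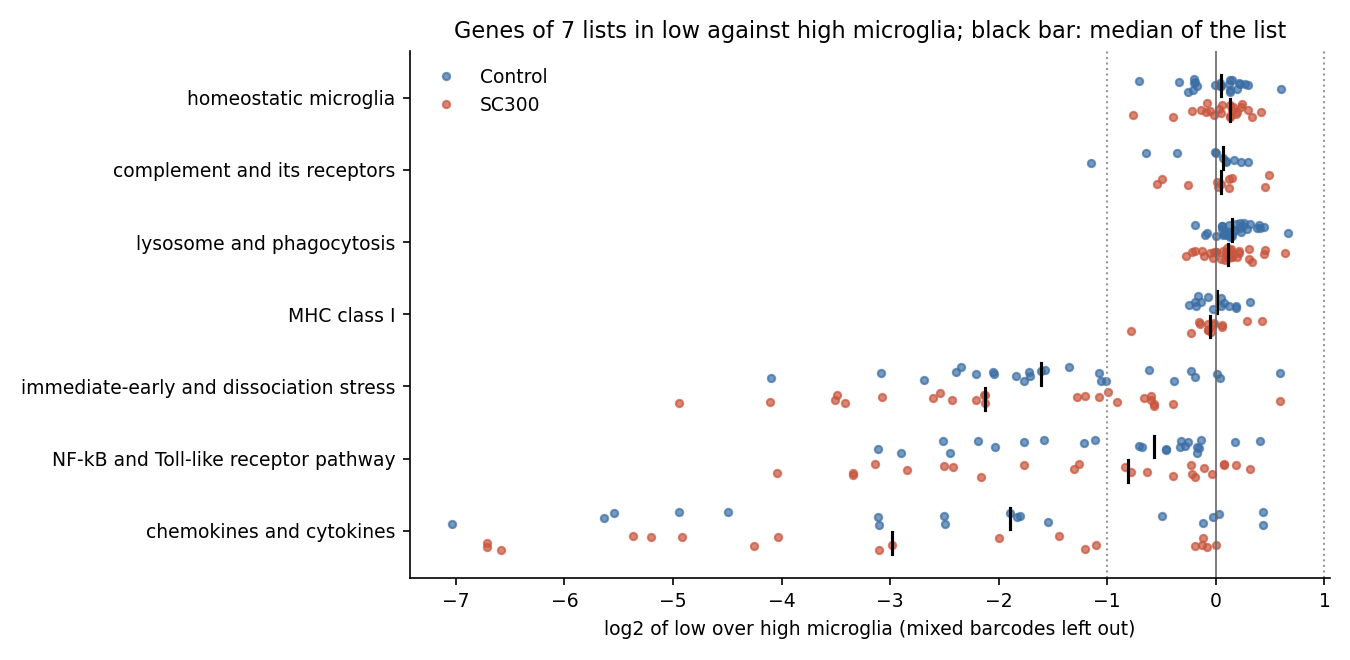
Log2 ratio of low over high microglia without mixed barcodes (x axis) for the genes with at least 100 UMIs in 7 lists (y axis), with 1 point per gene in Control (blue) and in SC300 (red), black bars at the list medians and dotted lines at 2-fold. Homeostatic, complement, lysosomal and MHC class I genes gather near 0, and the medians of immediate-early genes lie at -1.62 and -2.13.

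Of 23 homeostatic genes, 1, *Irf8*, was over 2-fold lower in both libraries over all members, and the list median was -0.28 in Control and -0.37 in SC300. Without mixed barcodes 0 were over 2-fold apart, with medians of 0.05 and 0.13. Several of these genes belong to the rule, and a low sum of microglial genes is 1 of the ways in which a barcode is mixed, so that the values without mixed barcodes are partly set by the choice of barcodes. In those values *Tmem119* differed by 0.12 and 0.30, *P2ry12* by 0.21 and 0.13, the fractalkine receptor *Cx3cr1* by -0.20 and -0.09, and *Csf1r* by 0.04 and 0.16. *Irf8*, a transcription factor of the myeloid lineage, was the homeostatic gene furthest below 0, with -0.71 and -0.76. With and without mixed barcodes 0 of 32 lysosomal and phagocytic genes and 0 of 14 MHC class I genes with at least 100 UMIs were over 2-fold apart in both libraries, counts that lie near the 5.32% higher and 2% lower of all genes, and the 0.218% and 1.85% without mixed barcodes. Of 11 complement genes, 1, the receptor *C3ar1*, was lower over all members (-1.49 and -1.02) and 0 without mixed barcodes. In the CSF1 and TGF-beta list 3 of 17 genes were lower, among them the myeloid factors *Cebpa* (-1.60 and -1.16) and *Cebpb* (-1.80 and -1.74).

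The sum of 9 immediate-early genes was higher at each step in the level of the 3 genes in microglial barcodes that were not mixed, while single genes such as *Jun* and *Dusp1* were not higher at the last step in Control. Summed over *Fos*, *Jun*, *Egr1*, *Dusp1*, *Ier2*, *Btg2*, *Zfp36*, *Atf3* and *Nr4a1*, barcodes without any UMI of the 3 genes held 3660 CPM in Control and 3486 CPM in SC300. Members above 0 held 10789 and 5951 CPM. High microglia at 150 per 10000 or more held 25350 and 24452 CPM. Over the same range the sum of 9 microglial genes moved between 27113 and 31682 CPM in Control and between 27919 and 31310 CPM in SC300, in barcodes that had to hold a minimum of these same genes. Members above 0 and members at 0 also differed in depth, with medians of 5704 and 2660 UMIs in Control and 5709 and 2886 UMIs in SC300.

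**Figure D3:**
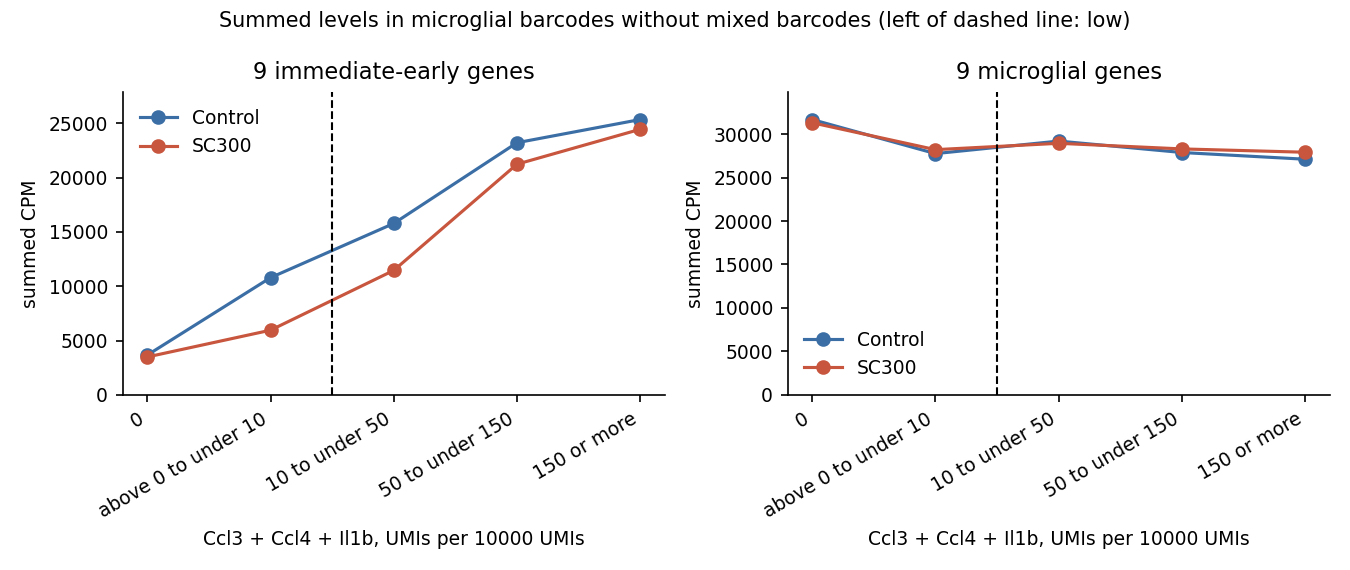
Summed CPM (y axis, from 0) of 9 immediate-early genes (left) and 9 microglial genes (right) in microglial barcodes without mixed barcodes, in 5 steps of summed Ccl3, Ccl4 and Il1b (x axis), for Control (blue) and SC300 (red), with low microglia left of the dashed line. The immediate-early sum goes from 3660 to 25350 CPM in Control and from 3486 to 24452 CPM in SC300, and the microglial sum, which is 1 of the values that define mixed barcodes, lies between 27113 and 31682 CPM.

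Fewer genes were higher in low microglia without mixed barcodes. The 12 genes furthest up over all members included *Chgb*, a granin of secretory vesicles, with 144 against 6.94 CPM in Control and 56.5 against 1.39 CPM in SC300, the vesicle protein *Rab3a* with 343 against 15.7 CPM and 199 against 10.8 CPM, and the neuronal tubulin *Tubb3* with 296 against 16.8 CPM and 138 against 9.41 CPM. Without mixed barcodes the log2 ratio of *Tubb3* went from 4.14 to 1.27 in Control and from 3.87 to 1.11 in SC300, that of *Rab3a* from 4.45 to 1.63 and from 4.21 to 0.96, and that of *Chgb* from 4.37 to 3.52 and from 5.34 to 2.43. *Ly6h*, with 3.71 and 1.17, stayed over 2-fold higher. *Chgb* and *Tubb3* had under 100 UMIs without mixed barcodes and were not among the genes counted there. The 12 genes over 2-fold higher without mixed barcodes included *Clu*, with 62.3 against 24.9 CPM in Control and 62.6 against 23.0 CPM in SC300, and *Serpine2*, with 19.8 against 5.37 CPM and 61.0 against 18.4 CPM. The astrocyte marker *Gja1* stood at 22.7 against 13.4 CPM in Control and 18.3 against 18.4 CPM in SC300 without mixed barcodes. The 8 neuronal markers summed to 87.9 and 87.0 CPM in members that were not mixed, against 49.3 and 34.9 CPM in all high microglia. The 7 astrocyte markers summed to 431 and 520 CPM against 496 and 513 CPM. The part of RNA of other cells in the higher genes was not tested.

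The promoters of the genes that were lower in low microglia were read from RefSeq, as the 250 bases before the gene start in the GRCr8 assembly, to show where letters of 4 known motifs stand in them. A kB motif, written GGGNNNTTCC and searched on both strands, was present in 17 of the 81 promoters that could be matched to the 102 genes lower without mixed barcodes (21.0%), in 257 of the 4284 matched promoters of all genes tested, and in 4.53% of all 27457 promoters. An AP-1 motif, TGANTCA, was present in 6 of the 81 (7.41%), in 4.11% of those of all genes tested and in 6.36% of all promoters. A cyclic AMP response element, TGACGTCA, was present in 8 of the 81 (9.88%), in 3.10% and in 1.70%, and those 8 included the immediate-early genes *Btg2*, *Dusp1*, *Ier2* and *Jund*. A PU.1 motif, GAGGAAGT, was present in 1 of the 81, in 2.68% and in 2.04%. Of 18 matched promoters of homeostatic genes, 2 held a kB motif. These are matches of letters, not binding sites. *Ccl3* and *Ccl4* were not among the promoters used here, and that of *Il1b* held none of the 4 motifs in this window. Of the 12 genes furthest down, 7 had a promoter here, and 3 of the 7 held a kB match. Those 3, and that of *Nfkbia*, were chosen for their kB match and are printed 5′ to 3′ with every match in capitals. Among the rest, *Nr4a1* and *Egr2* held none of the 4 motifs, *Il1a* held an AP-1 match and *Nr4a2* a PU.1 match. *Ccl7* (chr10:67513845-67514094, plus strand) held a kB match that starts 59 bases before the gene start and an AP-1 match at 73. *Cxcl1* (chr14:17479322-17479571, minus strand) held kB matches at 102, 84 and 83, the last of which overlap. *Nfkbiz* (chr11:58251471-58251720, plus strand) held 1 at 13, and *Nfkbia* (chr6:78597073-78597322, minus strand) 1 at 31.
Ccl7: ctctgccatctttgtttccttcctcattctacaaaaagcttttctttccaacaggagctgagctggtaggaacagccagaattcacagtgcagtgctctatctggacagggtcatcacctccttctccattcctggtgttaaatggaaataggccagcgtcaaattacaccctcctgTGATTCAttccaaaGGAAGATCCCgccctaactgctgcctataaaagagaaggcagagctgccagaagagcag
Cxcl1: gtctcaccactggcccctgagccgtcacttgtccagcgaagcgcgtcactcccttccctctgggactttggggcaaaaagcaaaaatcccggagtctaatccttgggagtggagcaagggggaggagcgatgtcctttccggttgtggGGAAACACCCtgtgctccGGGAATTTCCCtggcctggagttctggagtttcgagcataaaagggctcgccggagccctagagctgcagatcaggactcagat
Nfkbiz: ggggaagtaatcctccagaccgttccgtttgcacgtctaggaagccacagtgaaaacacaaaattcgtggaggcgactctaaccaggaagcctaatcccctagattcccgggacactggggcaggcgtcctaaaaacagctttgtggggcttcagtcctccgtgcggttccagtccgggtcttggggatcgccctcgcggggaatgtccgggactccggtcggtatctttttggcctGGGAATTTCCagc
Nfkbia: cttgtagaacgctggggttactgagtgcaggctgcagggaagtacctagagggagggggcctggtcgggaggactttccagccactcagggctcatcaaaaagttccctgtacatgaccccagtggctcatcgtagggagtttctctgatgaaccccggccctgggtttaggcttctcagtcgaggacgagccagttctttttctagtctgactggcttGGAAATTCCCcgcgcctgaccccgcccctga

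Among themselves the members differed widely in immediate-early genes. Among members thinned to 2000 UMIs without mixed barcodes, the Fano factor, the variance over the mean, was 7.68 in Control and 8.01 in SC300 for *Fos*, 6.19 and 7.31 for *Jun*, 6.90 and 6.16 for *Egr1* and 6.42 and 6.41 for *Hspa1b*. Among the 15 most variable genes those above *Fos* in both libraries all had higher means, namely *Cst3* (24.7 and 17.4), *Tmsb4x* (10.8 and 9.38) and the unnamed transcripts AC134224.3 (31.3 and 32.2) and AY172581.24 (8.47 and 12.4). The 9 immediate-early genes had a median sum of 6 UMIs per thinned cell of Control (quartiles 1 and 15.25, highest 89) and 2 in SC300 (quartiles 0 and 9, highest 104). They were at 0 in 26 of 116 Control and 33 of 112 SC300 cells. High microglia had medians of 42 and 40 UMIs, and just 1 cell at 0 in each library. Across these cells *Fos* and *Jun* had a Spearman correlation of 0.73 in Control and 0.63 in SC300, and *Fos* and the phosphatase *Dusp1* of 0.64 and 0.60. *Fos* and *Hspa1b* had 0.12 and 0.46. All cells of a value share 1 library and 1 thinned depth.

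Between the groups, few genes of the members differed once mixed barcodes were set aside. Of 2690 genes with at least 100 UMIs, 131 (4.87%) were over 1.5-fold higher in SC300 and 168 (6.25%) over 1.5-fold lower. Without mixed barcodes 18 of 1753 genes (1.03%) were higher and 62 (3.54%) lower. Just 10 genes were higher in both sets, and 40 were lower in both. The median log2 ratio of all genes was -0.06 with and -0.01 without mixed barcodes. With 1 pool of rats per group, a difference between the groups and one between the pools cannot be told apart.

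The genes furthest up in SC300 had few UMIs in Control. *Wscd1* had 28 UMIs in Control and 139 in SC300, with a ratio of 2.31 (1.72 to 2.95) on the log2 scale, and 5 cells held 79.9% of the SC300 UMIs. Without mixed barcodes it had 6 and 13 UMIs, with 1.22 (-0.27 to 2.90). *Olig1*, a factor of the oligodendrocyte lineage, had 67 and 224 UMIs, of which mixed barcodes held 65 and 179. Without them the counts were 2 and 45 UMIs, or 4.60 (2.66 to 7.69) on the log2 scale, but without Scrublet doublets its ratio was 0.12. *Fabp7*, a fatty acid binding protein of radial glia and astrocytes, had 41 and 139 UMIs (1.76), and 7 and 46 UMIs without mixed barcodes (2.82, from 1.67 to 4.22). The ratio of *Fabp7* was 0.96 without Scrublet doublets and 0.97 with a limit of 5 per 10000, but 2.83 after thinning. *S100b*, a calcium-binding protein of astrocytes, had 111 and 340 UMIs and a log2 ratio of 1.61, which was 0.96 (0.42 to 1.51) without mixed barcodes, while it was -0.37 in high microglia and -0.48 in all other cells. The other genes named by the same rule were *Omg*, *Gpm6b*, *Ptprd*, *Psat1*, *Sirt2*, *Gpr37*, *Enpp2* and *Rnd2*, with log2 ratios from 1.46 to 1.68. Mixed barcodes held 91.1% of the SC300 UMIs of *Omg*, 92.4% of those of *Ptprd*, 96.4% of those of *Psat1* and 98.1% of those of *Gpr37*, and without them *Psat1* had 3 and 3 UMIs and *Gpr37* 3 and 2. *Enpp2* went from 1.51 to -0.35 without mixed barcodes and *Sirt2*, a deacetylase of myelin, from 1.60 to 0.24. The oligodendrocyte and oligodendrocyte precursor marker sums given above were higher in SC300 as well, and their part was not tested.

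**Figure D4:**
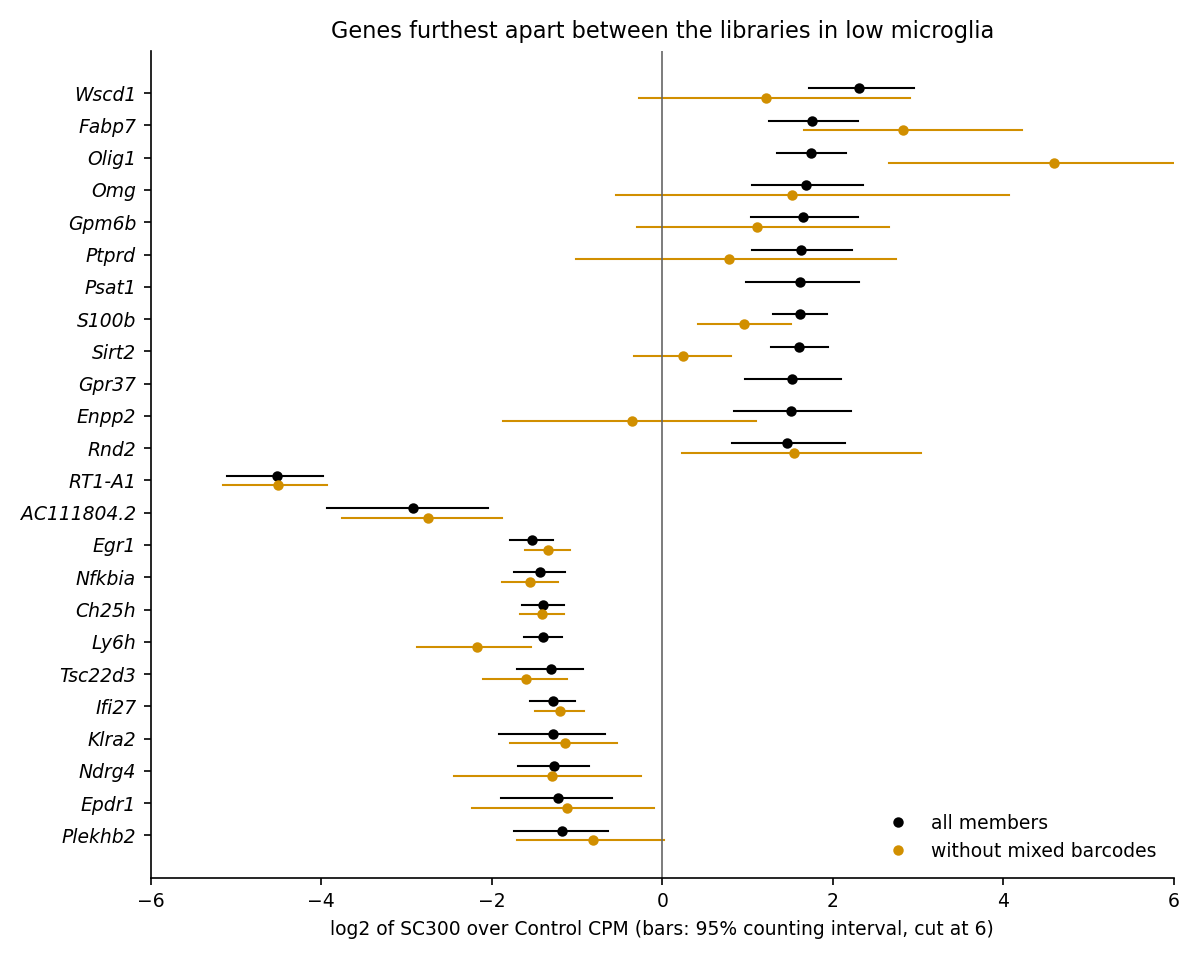
Log2 ratio of SC300 over Control CPM (x axis) for the 12 genes furthest up and the 12 furthest down in low microglia (y axis), over all members (black) and without mixed barcodes (orange), with bars for the 95% counting interval and no orange point where both libraries had 3 UMIs or fewer. The lower genes RT1-A1, Nfkbia, Ch25h, Tsc22d3 and Ifi27 keep their place without mixed barcodes, and Sirt2 and Enpp2 among the higher genes move to 0.24 and -0.35.

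The 12 genes furthest down in SC300 had log2 ratios from -4.51 to -1.18. Among them *Ly6h* (589 and 224 UMIs, -1.40) and *Ndrg4* (169 and 70 UMIs, -1.27) had over 80% of their UMIs in mixed barcodes of each library, and *Epdr1* (-1.22) and *Plekhb2* (-1.18) had from 54.8% to 62.1%. *Ly6h* was also among the genes furthest up in low against high microglia. Without mixed barcodes these 4 genes stood at -2.18, -1.29, -1.12 and -0.82. *RT1-A1*, a classical MHC class I gene, had 662 UMIs in 151 Control members and 29 UMIs in 24 SC300 members. Its log2 ratio was -4.51 (-5.10 to -3.98) over all members and -4.51 without mixed barcodes. After thinning, 74.4% of Control and 6.77% of SC300 members had a UMI, against 5.31% and 0% of oligodendrocyte barcodes, where 0 of 804 allows up to 0.373% at 3 counts of the total. The ratio was -4.74 in high microglia and -4.86 in all other cells, each over the summed counts of those cells. The RT1 class I genes are near copies of each other among which the counting can split reads, and their single levels are uncertain for that reason. Among the other class I genes of the list, *RT1-CE4* stood at 782 and 474 CPM (-0.72, and -0.67 without mixed barcodes), *RT1-CE10* at 1390 and 1337 CPM (-0.06), *RT1-A2* at 254 and 243 CPM (-0.06) and the light chain *B2m* at 4276 and 3552 CPM (-0.27, and -0.18 without mixed barcodes). Of 9 measured class I genes, 0 were higher and 2 lower, beside 4.87% and 6.25% of all genes, and without mixed barcodes 0 and 2 of 8, beside 1.03% and 3.54%.

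*Ifi27*, an interferon-induced gene, and *Klra2*, a lectin-like receptor, were also lower in high microglia, and *Ifi27* was lower in all other cells too. *Ifi27* had 406 and 167 UMIs and ratios of -1.28 (-1.55 to -1.02) in the members, -1.30 in high microglia and -1.08 in all other cells. Without mixed barcodes it was -1.20. Of thinned members, 51.2% in Control and 24.8% in SC300 had a UMI of *Ifi27*. *Klra2* had 80 and 33 UMIs, with ratios of -1.28 in the members, -1.14 without mixed barcodes and -1.29 in high microglia. After thinning, however, 12.4% and 10.5% of members had a UMI and the ratio was -0.29. In all other cells it had just 25 and 12 UMIs (-1.19, from -2.32 to -0.15). Those cells include barcodes with microglial markers that the rule dropped for markers of other cells. Of 5 measured interferon response genes 1, *Ifi27*, was lower with and without mixed barcodes, beside 6.25% and 3.54% of all genes, and *Ifngr1* (-0.14), *Ifngr2* (-0.25) and *Ifitm2* (0.18) were not past 1.5-fold.

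*Ch25h* and *Tsc22d3* had larger differences in microglia than in other cells, without a test between them. *Ch25h*, the cholesterol 25-hydroxylase that macrophages induce on activation, had 511 UMIs in 90 Control and 194 UMIs in 43 SC300 members. Its ratio was -1.40 (-1.64 to -1.16), -1.41 without mixed barcodes and -1.54 in high microglia, against -0.08 in all other cells. Thinned shares of members were 44.2% and 21.8%, with 1.13% and 1.12% in oligodendrocyte barcodes. *Tsc22d3*, a target of glucocorticoids that encodes the leucine zipper protein GILZ, had 198 and 80 UMIs, with ratios of -1.31 (-1.70 to -0.93) in the members, -1.60 without mixed barcodes, -1.76 in high microglia and -0.37 in all other cells. Its thinned shares of 23.3% and 12.0% in the members lay at or below the 24.2% and 17.4% of oligodendrocyte barcodes. Its levels in the members were 196 and 79.3 CPM. All other cells held 6582 and 5599 UMIs of it, so the gene was not confined to microglia. Whether the oligodendrocyte share is background or RNA of those cells was not tested, and it cannot serve as a background here. *Fh*, fumarate hydratase of the citric acid cycle, followed the same order, with 177 and 79 UMIs, -1.16 in the members, -1.17 in high microglia and -0.15 in all other cells.

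*Egr1* and *Nfkbia* had larger differences in low than in high microglia. *Egr1* had 522 UMIs in 41 Control and 181 UMIs in 31 SC300 members, a ratio of -1.53 (-1.78 to -1.28) and of -1.34 without mixed barcodes, against -0.28 in high microglia and -0.41 in all other cells. Its UMIs were concentrated, with 5 members holding 47.7% in Control and 59.7% in SC300. Members above 0 for the 3 genes of the limit carried most of the difference. Without mixed barcodes *Egr1* stood at 1099 and 314 CPM in them, and at 236 and 183 CPM in members at 0. Weighting every cell alike gave a ratio of -0.91 for *Egr1*. *Nfkbia* had 354 UMIs in 72 and 131 UMIs in 47 members, a ratio of -1.43 (-1.74 to -1.14), -1.55 without mixed barcodes, -0.21 in high microglia and -0.79 in all other cells. Its thinned shares were 33.3% and 15.8%, against 7.41% and 6.34% of oligodendrocyte barcodes. The unnamed transcript AC111804.2 had 91 UMIs in 17 and 12 UMIs in 7 members, a ratio of -2.92, while its ratio in high microglia was -0.07. With the limit set at 20 per 10000 the ratio in the members was -1.63. No test of the difference between low and high microglia was possible with 1 library per group.

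**Figure D5:**
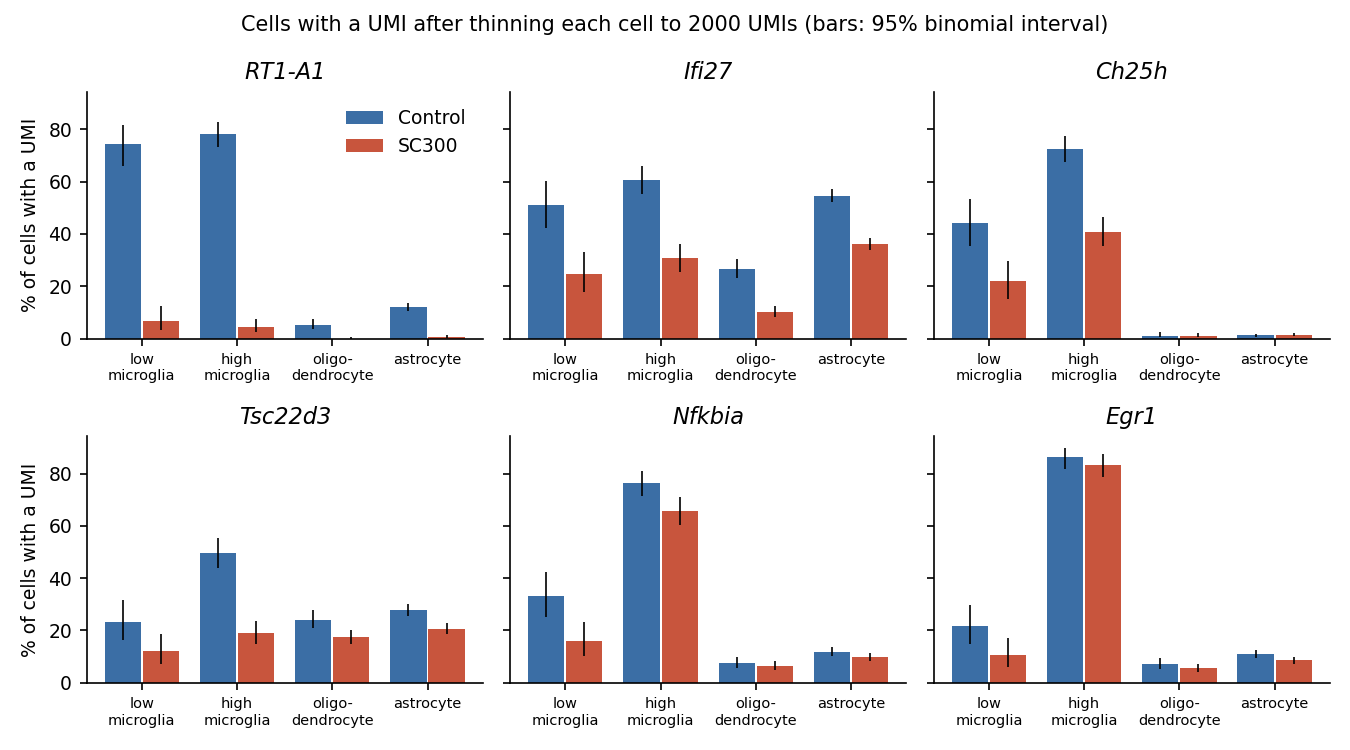
Percent of cells with a UMI (y axis, from 0) after thinning each cell to 2000 UMIs, for 6 genes in low microglia, high microglia, oligodendrocyte and astrocyte barcodes (x axis) of Control (blue) and SC300 (red), with bars for the 95% binomial interval. RT1-A1 was in 74.4% of Control and 6.77% of SC300 low microglia, and Ch25h in 44.2% and 21.8% with about 1% in oligodendrocyte barcodes.

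The lower level of early genes in SC300 members extended to the list. Of 19 measured immediate-early and stress genes, 9 were over 1.5-fold lower and 1 was higher, against 6.25% and 4.87% of all genes, and the list median was -0.57 beside -0.06. Without mixed barcodes 8 were lower and 0 higher, with a median of -0.46 beside -0.01. *Dusp1* stood at 1001 and 521 CPM (-0.94), *Ier2* at 434 and 225 CPM (-0.95), *Jund* at 829 and 460 CPM (-0.85) and *Fos* at 1304 and 855 CPM (-0.61), and without mixed barcodes at -0.85, -0.94, -0.76 and -0.54 in that order. The higher gene was *Hspa1b*, at 579 and 880 CPM (0.60). The difference lay mainly in members above 0 for the 3 genes of the limit. Among members that were not mixed, the sum of 9 immediate-early genes was 10789 and 5951 CPM in those above 0. In those with no UMI of the 3 genes it was 3660 and 3486 CPM. There *Ier2* stood at 349.6 and 238.5 CPM, *Dusp1* at 596 and 453 CPM and *Jun* at 1177 and 1328 CPM. The size of the difference moved with the limit, with a list median of -0.34 under 5 and of -0.21 under 20 per 10000, and it was -0.21 with every cell weighted alike. Of 10 measured NF-kB genes, 2 were lower, *Nfkbia* and *Cd83* (412 and 184 CPM, -1.16, and -1.14 without mixed barcodes), and 0 were higher, beside 6.25% and 4.87% of all genes. Without mixed barcodes 2 of 9 were lower and 1, the subunit gene *Nfkb1* (0.59), was higher, beside 3.54% and 1.03%.

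Of 21 measured homeostatic genes, 0 were over 1.5-fold higher and 0 lower in SC300, near the 4.87% and 6.25% of all genes, with a median of -0.05, and of 0.04 without mixed barcodes. *Tmem119* had 1003 and 1027 UMIs (0.03), *Csf1r* 1997 and 2112 UMIs (0.08), *Cx3cr1* 380 and 366 UMIs (-0.05) and *P2ry12* 293 and 241 UMIs (-0.28). *Cst3*, the most abundant transcript of the members, stood at 70685 and 61147 CPM (-0.21), and at -0.06 without mixed barcodes. The lysosomal list had 0 higher and 0 lower of 28 genes, the CSF1 and TGF-beta list 0 and 0 of 11, and the purinergic and chemokine receptor list 0 and 0 of 7, beside the same shares of all genes. Without mixed barcodes these were 0 and 0 of 27, 0 and 1 of 10, and 0 and 0 of 7, beside 1.03% and 3.54% of all genes, and the lower gene was *Cebpb* (-0.52 over all members and -0.82 without mixed barcodes).

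Among the few genes higher in SC300 with and without mixed barcodes was the complement gene *Cfp*. It encodes properdin, which stabilizes the alternative complement convertase, and had 193 UMIs in 90 Control and 300 UMIs in 115 SC300 members, a ratio of 0.64 (0.37 to 0.90) and of 0.79 without mixed barcodes, against 0.48 in high microglia and 0.06 in all other cells. Its thinned shares were 33.3% (25.3 to 42.2) and 45.1% (36.5 to 54.0), with overlapping intervals. It was the 1 higher gene among 6 measured complement genes with and without mixed barcodes, where *C1qa* (-0.17), *C1qb* (-0.06) and *C1qc* (0.01) were within 1.5-fold. *Apoe*, a lipid carrier, stood at 4340 and 6130 CPM (0.50), and at 0.62 (0.56 to 0.69) without mixed barcodes, and its ratio in high microglia was 0.47. *Trem2*, a lipid receptor of microglia, went the other way with 831 and 607 CPM (-0.45, and -0.35 without mixed barcodes). In the lipid and disease-associated list 3 of 10 genes were higher, among them the tetraspanin *Cd9* (1.11), and 1, *Ch25h*, was lower, beside 4.87% and 6.25% of all genes. Without mixed barcodes 2 of 7 were higher, *Apoe* and *Cd9* (0.66), and 1 was lower, beside 1.03% and 3.54%.

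In the remaining lists, counts over all members stand beside 4.87% higher and 6.25% lower of all genes. Iron and redox genes had 1 higher gene of 14, the iron carrier *Tf*, at 874 and 1381 CPM (0.66), which stood at -0.12 without mixed barcodes, where 0 of 12 were higher. Cell cycle genes had 0 higher and 0 lower of 4, and 0 and 0 of 3 without mixed barcodes, and clock genes 1 and 0 of 2. The steroid and nuclear receptor list had 0 and 1 of 3, the 1 being *Tsc22d3*, a glucocorticoid target and not a receptor. Without mixed barcodes *Tsc22d3* was the 1 gene of the list measured, so no receptor gene of it was compared there. Chemokines and cytokines had 0 and 1 of 5, and 0 and 1 of 4 without mixed barcodes. The 5 include *Ccl3* and *Ccl4*, and the 4 include *Ccl3*, genes whose levels were held down by the limit itself. The 1 lower gene was *Cxcl2*, with 81 UMIs in 11 Control and 20 UMIs in 5 SC300 members, none of them mixed. Of MHC class II genes 2 were measured, *Cd74* with 236 and 76 UMIs and *RT1-Da* with 83 and 19 UMIs, and 5 members held 75.8% of the Control *Cd74* UMIs. Without mixed barcodes *Cd74* stood at -1.36. *Hba-a2* (ENSRNOG00000029886), a haemoglobin gene with near-identical copies, stood at -2.48 in members without mixed barcodes, and the median of summed haemoglobin over all cells kept was 6.06 per 10000 in Control and 1.37 in SC300.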

How the data were processed

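The deposited files hold UMI counts per gene and barcode, which the authors made with Cell Ranger (version 3.0.1 in the submitters' processing notes). Per the methods, reads were aligned to an Ensembl transcriptome with default settings, and raw counts were used as deposited. Depth was 52004789 UMIs over 4488 barcodes in Control and 57013099 UMIs over 4524 barcodes in SC300. Counts were summed over the members of each library and given as CPM of those sums, and genes with at least 100 UMIs were compared. A count of 0 was set to 3 UMIs for ratios. Intervals are exact, from the Poisson distribution for levels, from the binomial one (Clopper-Pearson) for shares, and from the binomial split of both counts for ratios. Genes with over 20% of their UMIs in 1 cell were left out of the genes furthest up and down. *Hba-a2*, *Cd74* and *RT1-Da*, named for other reasons, are above that share. Named were the genes of the rule with *Ctss* and *C1qb*, and the 12 genes furthest up and down between the groups. Also named were some of the 12 furthest up and down between low and high microglia, leading genes of the lists, and some of the most abundant and most variable genes. Others, such as *Fh*, *Cfp*, *Irf8*, *Cd9*, *Cebpa* and *Tlr2*, were chosen after their values were seen. The members and lists were chosen with earlier results of these data known. Scrublet, as run in scanpy 1.11.5, called 70 Control and 73 SC300 barcodes doublets, 4 and 10 of them members, and these were kept. Alternatives covered filters, the limit, scaling, thinning and leaving out mixed barcodes. The steps were run in Python 3.11.15 with numpy 2.4.6, pandas 2.3.3 and scipy 1.17.1, and checked on simulated data. Some genes are not reported here.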

Additional observations from a re-analysis of the deposited data

Results flagged for a closer look

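*S100b* had a log2 ratio of SC300 over Control of 1.61 in low microglia, while the ratio in high microglia was -0.37, in the opposite direction. The difference between both was not tested. In low microglia the ratio was 0.96 without mixed barcodes, 0.41 with at least 4 of 6 microglial markers and -0.0950 with at most 10% mitochondrial UMIs. Other settings raised it, to 2.26 without Scrublet doublets and to 1.83 with a limit of 5 per 10000. The barcodes under 200 genes, which no comparison used, held 8 UMIs of the 6 microglial markers over 192 barcodes in Control and 7 UMIs over 145 barcodes in SC300, above the 3 UMIs that a count of 0 allows.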

How the results depend on the processing

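No paired analysis was possible because each group had 1 library. Of 286 values of single genes over all alternatives, 224 moved by less than the counting interval, 57 moved beyond it and 5 reversed. With at most 10% mitochondrial UMIs the log2 ratio of the share of kept cells was 0.18, 77 genes were higher and 72 lower in SC300, 27 were higher in low than in high microglia, and *S100b* stood at -0.0950. Without Scrublet doublets 41 genes were higher in SC300, 20 of the 24 genes named in that comparison stayed over 1.5-fold in the same direction, and of the other 4 *Olig1* stood at 0.12, *Ptprd* at 0.32, *Gpr37* at -0.0638 and *Enpp2* at -0.42. With at least 4 of 6 markers 210 genes, and with every cell weighted alike 162 genes, were higher in low than in high microglia. With a limit of 5 per 10000, 70 genes were higher in SC300. After thinning to 2000 UMIs 18 genes were higher and 34 lower in SC300, and *Enpp2* stood at -0.0441. With at least 50 UMIs per gene 339 were higher and 400 lower in SC300 and 584 higher in low microglia, and with at least 200 UMIs 56, 73 and 157. Without mixed barcodes, an alternative chosen after seeing the data, 18 genes were higher and 62 lower in SC300, 12 were higher in low microglia, and *Enpp2* stood at -0.35. Thinning moved the share of SC300 members with a UMI of *RT1-A1* to 6.77%, of *Csf1r* to 89.5%, of *Ctss* to 88.0% and of *C1qb* to 93.2%, and that of *P2ry12* to 45.0% in Control and 38.3% in SC300. The causes were not tested. With 1 library per group, counting error is a lower bound on the error of every value, and genes at a few UMIs in the members could not be compared at this depth.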
